A study of Homo sapiens with 10 samples.

Results

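Death receptors are cell surface proteins that turn the binding of a ligand into a death signal, and the genes described here are 5 of these receptors together with the proteins that assemble on them. The members are FAS, TNFRSF10A, TNFRSF10B, TNFRSF10D and TNFRSF1A as receptors, FADD and RIPK1 as adaptors, and CASP8, CASP10 and CFLAR as the caspases and their relative. They were chosen by name, 10 genes of the 58395 in the count files, and all 10 were among the 16905 genes that passed the filter on low counts. Each of them also passed that filter when the libraries of any single group were left out.

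The cells were HeyA8, an established human ovarian cancer cell line. They were transfected with 10 nM of an siRNA duplex, and total RNA was taken 24 or 48 h later. The wells kept to 48 h had their medium changed at 24 h. siGGGGGC and siGGCAGU carry the names of the 6mer seed of their guide strand, which is positions 2 to 7, and siNT1 is the non-targeting control duplex (labelled siNT1 S2'OM). siGGCAGU has the seed of miR-34a-5p. There were 2 libraries each of siNT1 at 24 h, siGGGGGC at 24 h, siNT1 at 48 h, siGGCAGU at 48 h and siGGGGGC at 48 h, and no siGGCAGU library at 24 h is part of the data analysed here. Every group, controls included, went through transfection with a duplex. Each pair of libraries came from duplicate wells of 1 cell line. The p-values below therefore set group differences against the spread of wells and libraries, estimated over all groups. They do not cover repeats of the experiment or other cell lines. In bulk RNA, fewer cells with a transcript and less of it per cell cannot be told apart.

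When FAS ligand or TRAIL binds FAS, TNFRSF10A (TRAIL receptor DR4) or TNFRSF10B (DR5), the receptor tails recruit the adaptor FADD, and FADD brings in the initiator caspases CASP8 and CASP10. This assembly is the death-inducing signaling complex. CFLAR encodes c-FLIP, a caspase-8 relative with no protease activity of its own that enters the complex and limits or shapes caspase-8 activation, and TNFRSF10D is a TRAIL decoy receptor whose tail lacks a working death domain. TNFRSF1A, the main TNF receptor, first builds a complex around TRADD and the kinase RIPK1 that leads to NF-kB, and a later complex with FADD and CASP8 can lead to cell death.

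Library depth ranged from 19781445 to 42428986 counts, and 3 genes that each took over 1% of a library held between 20.28% and 32.79% of the counts. Library siNT1 24 h replicate 1 stood apart, with 33365 genes detected against 25238 to 28703 in the other 9. The keratin genes KRT7, KRT8 and KRT18 were at 74.8 CPM (read counts scaled by the TMM library size) or more in every library, and the ovarian carcinoma marker PAX8 at 3.35 to 35 CPM, while the epithelial markers EPCAM, KRT19 and MUC16 were absent or nearly so, at 1.75 CPM or less. The 8 epithelial markers summed to 256 to 269 CPM with siGGGGGC at 48 h and to 687 to 914 CPM in the other groups. A further 8 markers, of blood, endothelial and stromal cells, summed to at most 1.79 CPM in siNT1 at 24 h. In the other groups that sum was 0.755 CPM or less. Of these markers PTPRC, CD3E, MS4A1, CD68, DCN and LUM never passed 0.201 CPM. The part of the keratin difference in the results below was not tested.

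A guide pairs through its seed with the reverse complement of the seed in a 3′ UTR, which is GCCCCC for siGGGGGC and ACTGCC for siGGCAGU. Among the miRNAs in the RefSeq table (GRCh38.p14), hsa-miR-34a-5p, hsa-miR-449a, hsa-miR-449b-5p and hsa-miR-548au-3p share the seed of siGGCAGU. The seed of siGGGGGC is shared by hsa-miR-1237-5p and hsa-miR-4488. The mature sequences of hsa-miR-34a-5p and hsa-miR-1237-5p are given to show the seeds, in capitals.
hsa-miR-34a-5p: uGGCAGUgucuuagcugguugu
hsa-miR-1237-5p: cGGGGGCggggccgaagcgcg

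In the longest annotated 3′ UTR (GENCODE 44, hg38), GCCCCC was found in FAS, TNFRSF10B, RIPK1 and CFLAR, 2 copies in each, against 30.2% of 19243 genes with at least 1 copy. ACTGCC was found in TNFRSF10D and CASP10 with 1 copy each, in FAS with 2 and in CFLAR with 4, against 32.7% of genes. TNFRSF10A, TNFRSF1A, FADD and CASP8 held neither word. Both GCCCCC copies of FAS lay in a 15155-base 3′ UTR of a non-canonical transcript, while the canonical FAS 3′ UTR of 2609 bases held 0 copies of GCCCCC and 1 of ACTGCC. CFLAR has the longest canonical 3′ UTR of the set, 12714 bases, and long 3′ UTRs hold more copies of any short word. A word was present and the level differed between the siRNAs in TNFRSF10B, TNFRSF10D, RIPK1, CASP10 and CFLAR. The sites of TNFRSF10B and TNFRSF10D are given by position where these genes are described, and those of RIPK1, CASP10 and CFLAR are printed here. The capitals mark the 6 bases opposite the seed, with 9 bases on either side, all on the plus strand.
RIPK1 site 1, chr6:3114786-3114791: agcatccctGCCCCCacctactag
RIPK1 site 2, chr6:3114825-3114830: ttctccccaGCCCCCcgccccagt
CASP10, chr2:201220356-201220361: tcttgggtaACTGCCaaactttgc
CFLAR GCCCCC site 1, chr2:201166168-201166173: ggcggacgcGCCCCCcacctccct
CFLAR GCCCCC site 2, chr2:201172020-201172025: ggaattatcGCCCCCtctcctgaa
CFLAR ACTGCC site 1, chr2:201165833-201165838: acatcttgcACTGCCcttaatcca
CFLAR ACTGCC site 2, chr2:201172966-201172971: ttttgaggaACTGCCaaactgctt
CFLAR ACTGCC site 3, chr2:201173586-201173591: ggtgatctgACTGCCttggcttcc
CFLAR ACTGCC site 4, chr2:201175016-201175021: tagtttacaACTGCCatagcaact
A match of 6 bases is a description of the letters and not evidence of pairing in these cells.

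In the control cells TNFRSF10D, TNFRSF1A and TNFRSF10B were the most abundant members. Per kilobase of the canonical transcript and over the 4 siNT1 libraries, TNFRSF10D had 59 ± 8 CPM per kb (SD, n = 4), TNFRSF1A 47.2 ± 1.75 and TNFRSF10B 30.8 ± 1.1. CASP8 followed with 19.9 ± 2.57 CPM per kb, then FAS with 13.8 ± 0.727 and TNFRSF10A with 12.3 ± 0.43. The decoy receptor transcript was thus above both TRAIL death receptors. RIPK1 had 4.42 ± 0.873 CPM per kb, CFLAR 2.37 ± 0.366 and FADD 1.53 ± 0.137. The CFLAR level is divided by 14612 bases, while its shortest annotated 3′ UTR has 77 bases, and levels for shorter transcripts were not computed. CASP10 was lowest, at 0.0741 ± 0.0312 CPM per kb, from 5 to 16 raw counts per siNT1 library. No neighbours in this order overlapped. The order of the middle depended on the length used. With the union of all annotated exons, which for FAS is 29313 against 3696 bases, for RIPK1 12173 against 4092, for CASP8 7237 against 2659 and for CFLAR 22478 against 14612, CASP8 fell below TNFRSF10A and the ranges of FAS, CFLAR, FADD and RIPK1 overlapped each other in turn, between 1.49 and 1.74 CPM per kb on average, and TNFRSF10B overlapped TNFRSF1A.

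**Figure D1:**
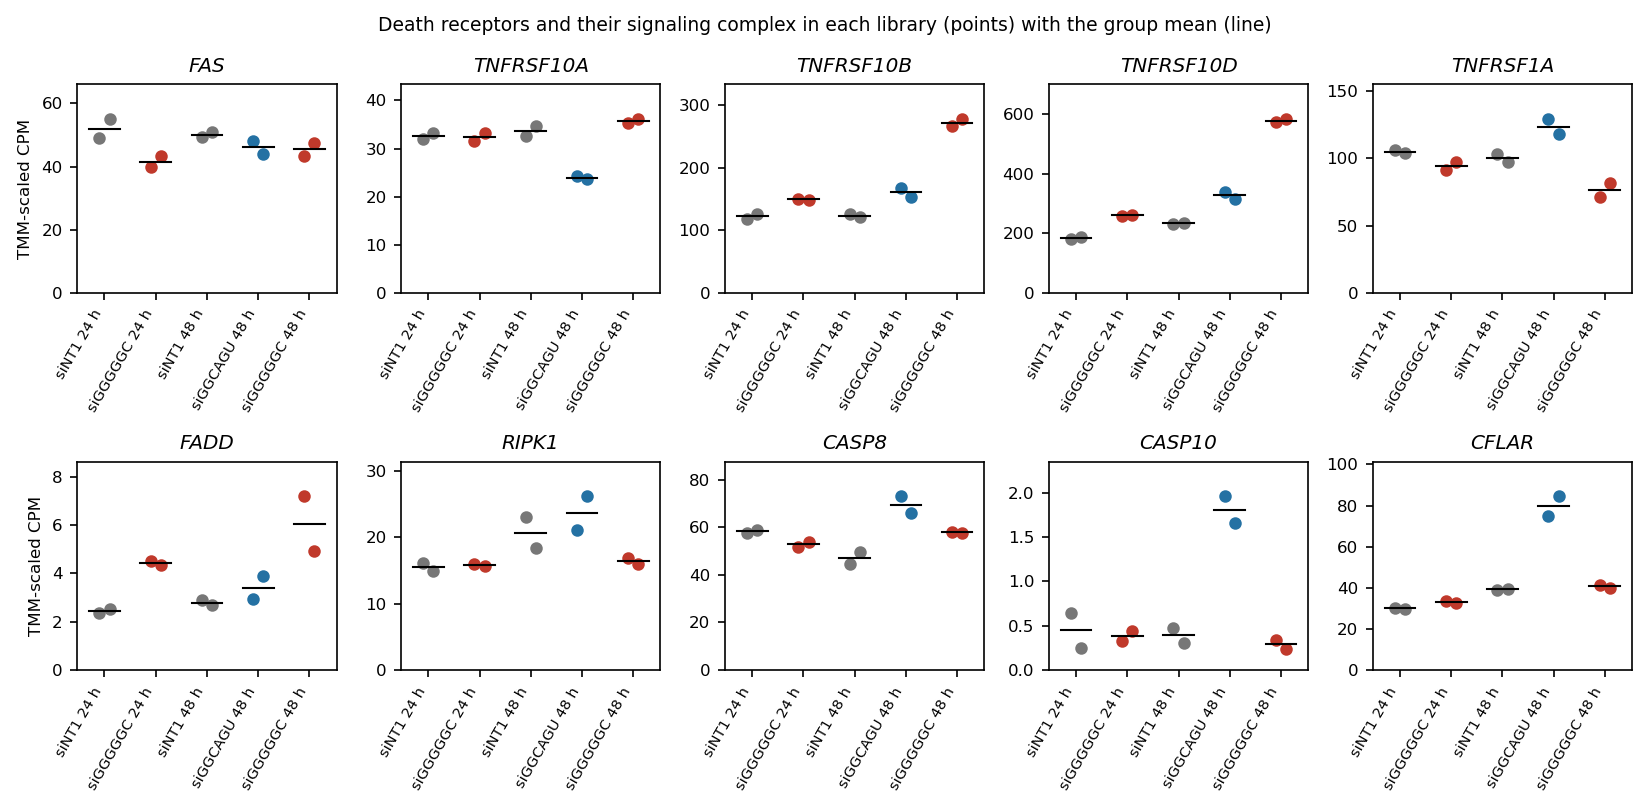
CPM scaled by TMM (y axis, from 0, a separate scale in each panel) in each of the 10 libraries (points) with the group mean (line) for the 10 members, in the 5 groups on the x axis. TNFRSF10B and TNFRSF10D are highest with siGGGGGC at 48 h, at 267 and 278 CPM and at 574 and 583 CPM, and CFLAR and CASP10 are highest with siGGCAGU.

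TNFRSF10D and TNFRSF10B were the receptors with the largest changes. TNFRSF10D (ENSG00000173530, chr8:23135588-23164027, minus strand), the decoy, was at 180 and 189 CPM in siNT1 and at 258 and 262 CPM in siGGGGGC at 24 h. At 48 h it was at 232 and 234 CPM in siNT1, 316 and 340 CPM in siGGCAGU and 574 and 583 CPM in siGGGGGC. All 5 groups were separate from each other, siGGGGGC lay above siNT1 at 24 h, and both siRNAs lay above it at 48 h. Its 3′ UTR holds the ACTGCC copy at chr8:23136057-23136062. The rise with siGGGGGC was 1.41-fold at 24 h (log2 fold change 0.50, SE 0.084, adjusted p = 0.000732) and 2.48-fold at 48 h (1.31, SE 0.084, adjusted p = 6.2e-09). With siGGCAGU it was 1.41-fold (0.49, SE 0.083, adjusted p = 0.000126). These calls were made under all 12 alternatives tried for each comparison, and without siNT1 24 h replicate 1 the 24 h value was 0.47 (adjusted p = 0.0253).

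TNFRSF10B (ENSG00000120889, chr8:23020133-23069031, minus strand), which encodes DR5, lies in the same gene cluster as the decoy. Its level was 118 and 127 CPM in siNT1 and 150 and 149 CPM in siGGGGGC at 24 h. At 48 h it was 126 and 121 CPM in siNT1, 168 and 154 CPM in siGGCAGU, and 267 and 278 CPM in siGGGGGC. The siNT1 groups of the 2 times overlapped, and every siRNA group lay above them. At 48 h siGGGGGC gave a 2.2-fold rise (log2 fold change 1.14, SE 0.086, adjusted p = 3.35e-08) and siGGCAGU a 1.3-fold rise (0.38, SE 0.085, adjusted p = 0.00153). The siGGCAGU rise lost its call when the compared libraries were fitted alone (0.33, SE 0.13, adjusted p = 0.0565). The 24 h rise with siGGGGGC was 1.22-fold (0.28, SE 0.086, adjusted p = 0.0316) and was no longer called when any 1 of the 4 libraries was left out (adjusted p up to 0.27, without siNT1 24 h replicate 1). Its 3′ UTR holds the 2 copies of GCCCCC at chr8:23021987-23021992 and chr8:23021597-23021602.

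TNFRSF10A (ENSG00000104689, chr8:23190452-23225102, minus strand), which encodes DR4, the other TRAIL death receptor of the same cluster, did not follow its neighbours. At 48 h it was at 32.6 and 34.6 CPM in siNT1, 24.3 and 23.6 CPM in siGGCAGU and 35.4 and 36.1 CPM in siGGGGGC, and at 24 h the 4 libraries lay between 31.5 and 33.2 CPM. The siGGCAGU libraries were the lowest of the 10 and overlapped no other group. The fall with siGGCAGU was 1.41-fold (log2 fold change −0.49, SE 0.087, adjusted p = 0.000204). With siGGGGGC the 95% interval of the log2 fold change ran from −0.20 to 0.18 at 24 h and from −0.095 to 0.27 at 48 h, neither called. An antisense gene, TNFRSF10A-AS1, shares 224 bases with TNFRSF10A and had a mean of 10.8 CPM, and the strand setting of the counting was not stated.

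FAS and TNFRSF1A moved less. FAS (ENSG00000026103, chr10:88953813-89029605), the receptor for FAS ligand, was at 49.1 and 55 CPM in siNT1 and 39.8 and 43.3 CPM in siGGGGGC at 24 h. At 48 h the groups lay close together, with 49.5 and 50.8 CPM in siNT1, 48.2 and 44.1 CPM in siGGCAGU and 43.5 and 47.6 CPM in siGGGGGC. The fall at 24 h was 1.25-fold (log2 fold change −0.32, SE 0.096, adjusted p = 0.0274), and leaving out any 1 library ended that call (adjusted p 0.0559 without siNT1 24 h replicate 1, up to 0.281). At 48 h neither siRNA passed the test, with 95% intervals of −0.34 to 0.059 for siGGGGGC and −0.32 to 0.074 for siGGCAGU on the log2 scale. FAS shares 21341 bases of its locus with STAMBPL1 on the same strand, which had a mean of 13.7 CPM, and reads that cannot be told apart between the genes are usually dropped by htseq.

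TNFRSF1A (ENSG00000067182, chr12:6328757-6342114, minus strand), the TNF receptor, moved in opposite directions with the siRNAs. It was at 103 and 97.2 CPM in siNT1 at 48 h, 129 and 118 CPM in siGGCAGU and 71.5 and 81.7 CPM in siGGGGGC, and these 3 groups did not overlap. It fell 1.3-fold with siGGGGGC (log2 fold change −0.38, SE 0.09, adjusted p = 0.00212) and rose 1.23-fold with siGGCAGU (0.30, SE 0.09, adjusted p = 0.00974). The fall was −0.30 without siGGGGGC 48 h replicate 1 (adjusted p = 0.0508), and the rise lost its call without siNT1 48 h replicate 2 (0.26, adjusted p = 0.0587), without siGGCAGU 48 h replicate 1 (0.24, adjusted p = 0.05) and in 2 other alternatives. At 24 h TNFRSF1A was at 106 and 104 CPM in siNT1 and 91.5 and 96.9 CPM in siGGGGGC, which did not pass the test (−0.16, adjusted p = 0.257).

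FADD (ENSG00000168040, chr11:70203296-70207390), the adaptor that every FAS or TRAIL receptor complex needs, had a low level and a clear rise with siGGGGGC. At 24 h it had 51 and 50 raw counts (2.34 and 2.52 CPM) in siNT1 and 81 and 79 (4.5 and 4.35 CPM) in siGGGGGC. At 48 h siNT1 was at 2.89 and 2.69 CPM, siGGCAGU at 2.92 and 3.89 CPM and siGGGGGC at 7.18 and 4.94 CPM. Both siGGGGGC groups lay above all 6 other libraries, while the 48 h replicates differed from each other more than those of any other group. The rise was 1.82-fold at 24 h (log2 fold change 0.86, SE 0.23, adjusted p = 0.0153) and 2.17-fold at 48 h (1.12, SE 0.19, adjusted p = 0.000155). The 48 h call was made under all 12 alternatives, with a value of 0.82 to 1.36 when a library was left out, and the 24 h call ended without any 1 library although the value stayed between 0.81 and 0.93. With siGGCAGU the 95% interval was −0.11 to 0.75 (adjusted p = 0.202).

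RIPK1 (ENSG00000137275, chr6:3063824-3115187), the kinase that joins the TNF receptor complex, was at 23 and 18.3 CPM in siNT1 at 48 h, 21.1 and 26.1 CPM in siGGCAGU and 16.8 and 15.9 CPM in siGGGGGC. The siGGGGGC libraries lay below the other 4 of that time, and siGGCAGU overlapped siNT1. The log2 fold change with siGGGGGC was −0.34 (1.26-fold lower, SE 0.13, adjusted p = 0.0342), and it was −0.18 without siNT1 48 h replicate 1 (adjusted p = 0.278), and lost its call without either siGGGGGC 48 h library (−0.38 and −0.30, adjusted p 0.0775 and 0.172) and with DESeq2 (−0.33, adjusted p = 0.0713). Directly between the siRNAs RIPK1 was 1.45-fold lower with siGGGGGC (−0.54, SE 0.13, adjusted p = 0.00207), a call made under all 12 alternatives. The 3′ UTR of RIPK1 holds 2 GCCCCC sites, printed above, as do the longest 3′ UTRs of FAS, TNFRSF10B and CFLAR. At 24 h, with 16.1 and 14.9 CPM in siNT1 and 15.9 and 15.7 CPM in siGGGGGC, the 95% interval was −0.26 to 0.32.

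CASP8 (ENSG00000064012, chr2:201233443-201361836), the main initiator caspase of the complex, was at 44.7 and 49.8 CPM in siNT1 at 48 h, 73 and 66 CPM in siGGCAGU and 58.2 and 57.8 CPM in siGGGGGC. No 2 of these groups overlapped. It rose 1.47-fold with siGGCAGU (log2 fold change 0.56, SE 0.088, adjusted p = 7.06e-05) and 1.23-fold with siGGGGGC (0.30, SE 0.088, adjusted p = 0.00984). The smaller rise lost its call in 4 of 12 alternatives, with 0.21 without siNT1 48 h replicate 1 (adjusted p = 0.0996), 0.29 and 0.30 without either siGGGGGC 48 h library (adjusted p 0.0663 and 0.0539) and 0.18 without a filter on low counts (adjusted p = 0.309). At 24 h CASP8 was at 57.8 and 59.1 CPM in siNT1 and 51.9 and 53.9 CPM in siGGGGGC, which did not pass the test (−0.14, adjusted p = 0.298). The siNT1 level itself differed between the times, and the siGGGGGC libraries at 48 h overlapped siNT1 at 24 h.

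CASP10 (ENSG00000003400, chr2:201182872-201229428), the second initiator caspase, was nearly silent outside siGGCAGU. Its raw counts at 48 h were 16 and 14 in siNT1, 39 and 58 in siGGCAGU and 8 and 6 in siGGGGGC, and at 24 h 14 and 5 in siNT1 and 6 and 8 in siGGGGGC. In CPM the siGGCAGU libraries were at 1.96 and 1.66 and the other 8 libraries between 0.239 and 0.643. The rise with siGGCAGU was 4.63-fold (log2 fold change 2.21, 95% interval 1.46 to 2.96, adjusted p = 7.22e-05), and leaving out a library moved the value between 1.89 and 2.51. The 3′ UTR of CASP10 holds the ACTGCC copy printed above. With siGGGGGC the intervals were wide, −1.38 to 0.92 at 24 h and −1.46 to 0.67 at 48 h, so a change of moderate size was not detectable at this depth.

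CFLAR (ENSG00000003402, chr2:201116154-201176687), which encodes c-FLIP and lies beside CASP10 and CASP8, was at 38.9 and 39.5 CPM in siNT1 at 48 h, 74.9 and 84.4 CPM in siGGCAGU and 41.2 and 40.1 CPM in siGGGGGC. Only the siGGCAGU group stood far from the others. The rise was 2.03-fold (log2 fold change 1.02, SE 0.086, adjusted p = 8.89e-08) and was called under all 12 alternatives, with values of 0.93 to 1.10. With siGGGGGC the 95% interval was −0.13 to 0.24 at 48 h and −0.053 to 0.34 at 24 h, where siNT1 was at 30.1 and 29.9 CPM and siGGGGGC at 33.8 and 32.4 CPM. CFLAR carries the 4 ACTGCC sites and the 2 GCCCCC sites printed above. CFLAR-AS1, on the opposite strand of the locus, had a mean of 2.44 CPM and at most 3.57 CPM in a library.

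**Figure D2:**
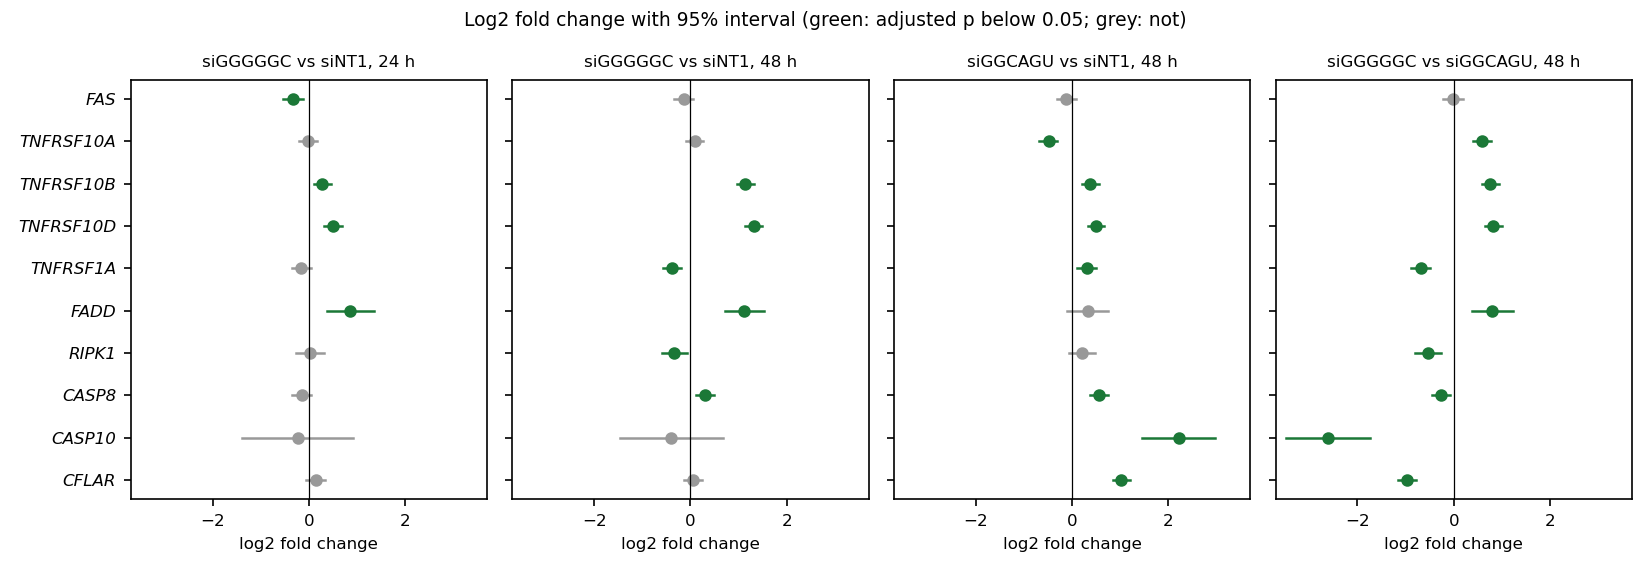
Log2 fold change (x axis) with its 95% interval for each member (y axis) in the 4 siRNA comparisons, green where the adjusted p is below 0.05 and grey where it is not. TNFRSF10B, TNFRSF10D and FADD lie to the right of 0 with siGGGGGC at 24 and 48 h, CASP10 and CFLAR lie at 2.21 and 1.02 with siGGCAGU, and FAS lies at −0.015 in the comparison of both siRNAs.

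Counted by comparison, siGGGGGC at 24 h changed 4 of 10 members, TNFRSF10B, TNFRSF10D and FADD upward and FAS downward, where 18.9% of all genes tested were called, 10.6% upward and 8.32% downward. None of the members was beyond a log2 fold change of 1, as 3.72% of genes were. The median log2 fold change of the members was 0.0095, against 0.0035 over all genes. Without any 1 of the 4 libraries, TNFRSF10D alone was called. At 48 h siGGGGGC changed 6 of 10, with TNFRSF10B, TNFRSF10D, FADD and CASP8 higher and TNFRSF1A and RIPK1 lower, beside 55.3% of all genes (27.8% upward and 27.5% downward). The members' median was 0.069 and that of all genes −0.011. This count was 3 without siGGGGGC 48 h replicate 1, the FADD, TNFRSF10B and TNFRSF10D calls. TNFRSF10B, TNFRSF10D and FADD were beyond a log2 fold change of 1, 3 of 10, against 21.5% of genes past that size in either direction.

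siGGCAGU at 48 h changed 7 of 10 members, 6 upward and TNFRSF10A downward, beside 52.7% of all genes, 27.8% upward and 24.9% downward. The members' median log2 fold change was 0.35 and that of all genes 0.024. CASP10 and CFLAR were beyond a log2 fold change of 1, 2 of 10, as were 20.3% of genes. With only the siGGCAGU and siNT1 48 h libraries fitted, 5 members were called. TNFRSF10B (adjusted p = 0.0565) and TNFRSF1A (adjusted p = 0.124) lost the call, and the SE of TNFRSF10A was 0.12 in place of 0.087. The share of all genes called in that fit is not reported here. Both 48 h comparisons used the same siNT1 libraries, so an error in these would move both alike, and so the siRNAs were also compared directly.

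That direct comparison at 48 h answers which members responded differently to the different seeds. Of the members 9 of 10 differed, where 54.3% of all genes did, 26.7% higher and 27.6% lower with siGGGGGC. CASP10 was the 1 member beyond a log2 fold change of 1, which 23% of genes were. TNFRSF10A, TNFRSF10B, TNFRSF10D and FADD were higher with siGGGGGC, by log2 values of 0.58, 0.76, 0.82 and 0.80. TNFRSF1A, RIPK1, CASP8, CASP10 and CFLAR were lower with siGGGGGC, by −0.69, −0.54, −0.26, −2.61 and −0.97. The 3 members on chromosome 8, with FADD, were therefore higher with siGGGGGC. The 3 members on chromosome 2, with TNFRSF1A and RIPK1, were higher with siGGCAGU. Against siNT1, TNFRSF10A had fallen with siGGCAGU (−0.49) and was not called with siGGGGGC (0.088, adjusted p = 0.404). The CASP8 difference lost its call in 5 of 12 alternatives (adjusted p = 0.0215 as fitted), among them the fits without siGGCAGU 48 h replicate 1 (−0.19, adjusted p = 0.107), without siGGGGGC 48 h replicate 1 (−0.27, adjusted p = 0.0879) and without siGGGGGC 48 h replicate 2 (−0.25, adjusted p = 0.11). That of FADD was 0.50 without siGGGGGC 48 h replicate 1 (adjusted p = 0.0733). FAS did not differ detectably (95% interval −0.22 to 0.19).

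The effect of siGGGGGC was larger at 48 h than at 24 h for TNFRSF10B, by 0.86 on the log2 scale (SE 0.12, adjusted p = 9.72e-05), and for TNFRSF10D, by 0.82 (SE 0.12, adjusted p = 0.00012), as tested by an interaction term. CASP8 also differed, by 0.44 (SE 0.13, adjusted p = 0.0159), from −0.14 at 24 h to 0.30 at 48 h. These were 3 of 10 members, all with a positive difference, where 28.6% of all genes differed, 13.4% with a positive and 15.2% with a negative difference. None was beyond 1, where 11.2% of genes were. FADD, which was called at both times, had a difference of 0.25 with a 95% interval of −0.39 to 0.90, so the times could not be ranked for it. Without siNT1 24 h replicate 1 the values were 0.90 for TNFRSF10B (adjusted p = 0.000782), 0.84 for TNFRSF10D (adjusted p = 0.00127) and 0.45 for CASP8 (adjusted p = 0.0568).

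In cells with siNT1, 4 of 10 members differed between 48 h and 24 h, where 16.6% of all genes did, 9.37% higher and 7.2% lower at 48 h. Of all genes 1.53% were beyond a log2 fold change of 1, a size no member reached. Time and the change of medium at 24 h cannot be told apart in this comparison. TNFRSF10D was 1.26-fold higher at 48 h (log2 fold change 0.34, adjusted p = 0.0145), RIPK1 1.33-fold higher (0.41, adjusted p = 0.0405) and CFLAR 1.31-fold higher (0.39, adjusted p = 0.0102), while CASP8 was 1.24-fold lower (−0.31, adjusted p = 0.029). All 4 calls ended without siNT1 24 h replicate 1 and likewise without siNT1 24 h replicate 2. Without siNT1 24 h replicate 1 the values were 0.31 for TNFRSF10D (adjusted p = 0.145), 0.47 for RIPK1 (adjusted p = 0.131), 0.39 for CFLAR (adjusted p = 0.0915) and −0.32 for CASP8 (adjusted p = 0.137). Without siNT1 24 h replicate 2 the adjusted p were 0.0876, 0.23, 0.0933 and 0.203, and without siNT1 48 h replicate 1 those of RIPK1 (0.25, adjusted p = 0.296) and CASP8 (−0.22, adjusted p = 0.233) were also lost.

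**Figure D3:**
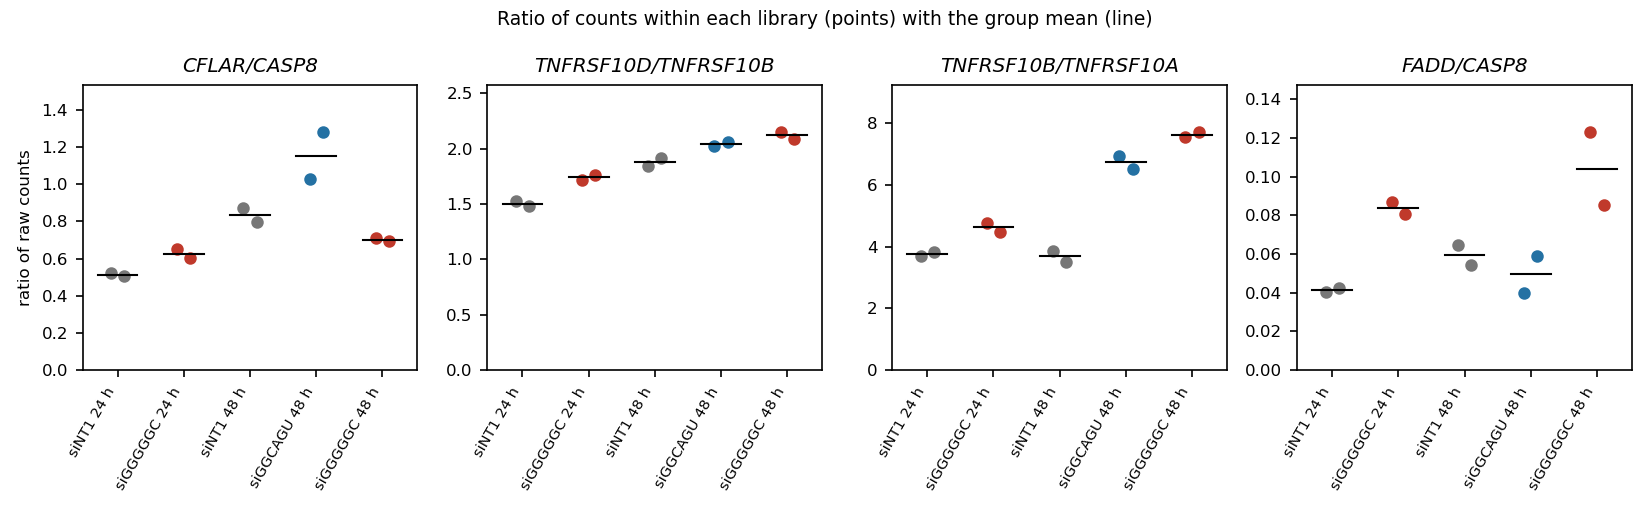
Ratio of raw counts of 2 members within each library (points, y axis from 0) with the group mean (line), for the 5 groups on the x axis. CFLAR/CASP8 is 1.03 and 1.28 with siGGCAGU against 0.794 and 0.872 in siNT1 at 48 h, and TNFRSF10B/TNFRSF10A is 6.53 or more with either siRNA at 48 h against 3.51 and 3.87.

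Ratios within a library do not depend on scaling between libraries. The counts of CFLAR, the inhibitor, to CASP8 stood at 0.833 ± 0.0547 (SD, n = 2) in siNT1, 1.15 ± 0.179 in siGGCAGU and 0.70 ± 0.0105 in siGGGGGC at 48 h, and the 3 groups did not overlap. At 24 h the same ratio was 0.513 ± 0.0104 in siNT1 and 0.626 ± 0.0349 in siGGGGGC, so siGGGGGC lay above siNT1 at 24 h and below it at 48 h. The ratio of the TRAIL receptors TNFRSF10B to TNFRSF10A was 3.77 ± 0.0992 and 3.69 ± 0.255 in siNT1 at the 2 times, 4.62 ± 0.203 in siGGGGGC at 24 h, 6.73 ± 0.283 in siGGCAGU and 7.63 ± 0.114 in siGGGGGC at 48 h. The DR5 transcript thus gained on the DR4 transcript with either siRNA, where TNFRSF10B had risen with both and TNFRSF10A had fallen with siGGCAGU. The decoy TNFRSF10D rose along with TNFRSF10B, and their ratio was 1.88 ± 0.0586 in siNT1, 2.04 ± 0.0237 in siGGCAGU and 2.12 ± 0.0403 in siGGGGGC at 48 h. At 24 h this ratio was 1.5 ± 0.0342 in siNT1 and 1.74 ± 0.0259 in siGGGGGC, so it also rose over time in siNT1. FADD to CASP8 was 0.0416 ± 0.0015 in siNT1 and 0.0837 ± 0.00426 in siGGGGGC at 24 h. At 48 h it was 0.0594 ± 0.00757 in siNT1, 0.0495 ± 0.0134 in siGGCAGU and 0.104 ± 0.0268 in siGGGGGC, with siGGCAGU overlapping siNT1 and siGGGGGC above both. These ratios are descriptions with no test, since 2 libraries a group cannot reach a p below 0.05 by permutation (the smallest is 0.333).

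The other genes of the pathway were 58 in 7 lists, of which 48 had enough counts to be tested. Among those with too few, the ligands FASLG, TNFSF10 (TRAIL) and LTA had at most 4, 5 and 5 raw counts in a library. TNFRSF10C, the other membrane-bound TRAIL decoy, had at most 2 counts and TNFRSF6B, a soluble decoy for FAS ligand, had 0. RIPK3 and ZBP1, which start necroptosis, had at most 1 count each. Of the lists together, siGGGGGC changed 12 of 48 at 24 h (5 upward, 7 downward) and 35 of 48 at 48 h (18 upward, 17 downward), and siGGCAGU changed 35 of 48 (22 upward, 13 downward). Between the siRNAs 33 of 48 differed. These are 25%, 72.9%, 72.9% and 68.8% of the 48, where 18.9%, 55.3%, 52.7% and 54.3% of all genes were called. The 24 h count was 6 to 8 when 1 library was left out. The values given for these genes are log2 fold changes, each with an adjusted p below 0.05 unless stated. The median over the 48 was 0.029, −0.012, 0.24 and −0.10 in these 4 comparisons, beside 0.0035, −0.011, 0.024 and −0.0086 over all genes.

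**Figure D4:**
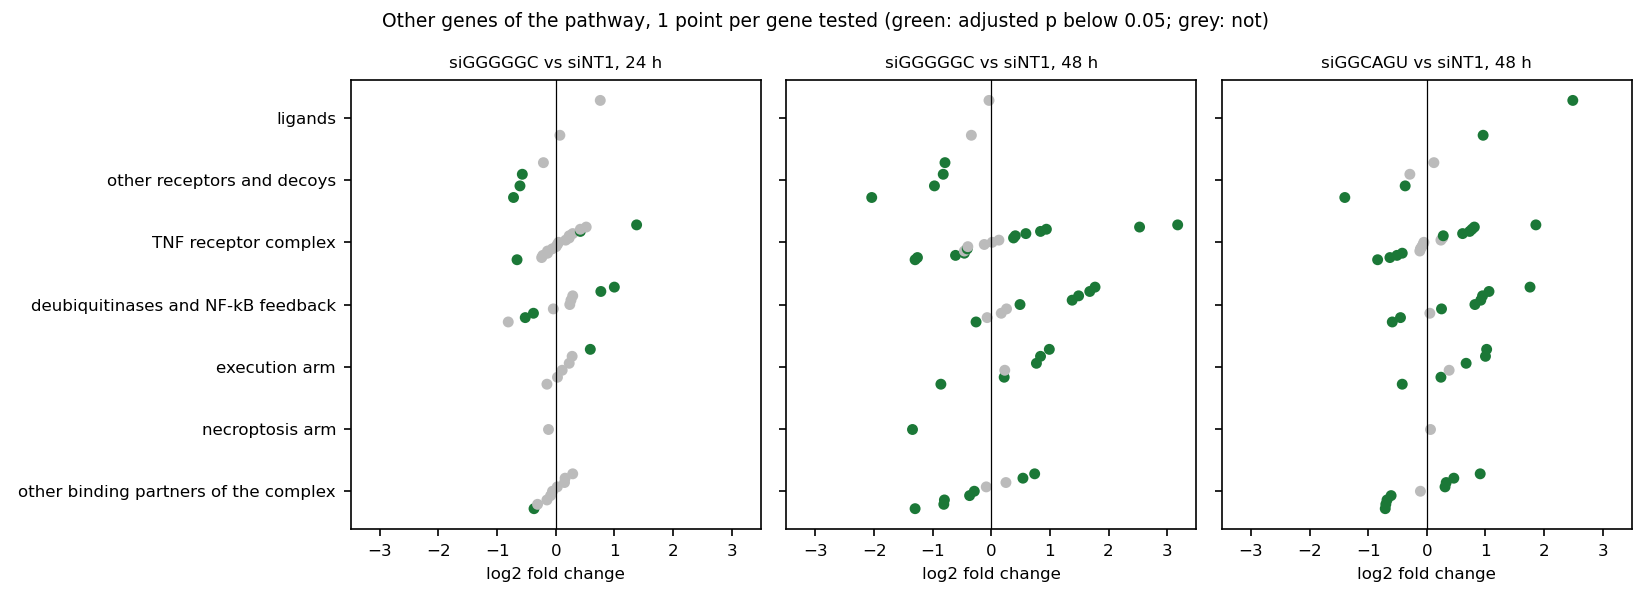
Log2 fold change (x axis) of each tested gene of the 7 lists of other pathway genes (y axis), 1 point per gene, in the comparisons of siGGGGGC at 24 h, siGGGGGC at 48 h and siGGCAGU at 48 h with siNT1, green where the adjusted p is below 0.05. The tested receptors and decoys called are all left of 0, and the feedback genes reach 1.77 with siGGGGGC and 1.76 with siGGCAGU at 48 h.

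The ligands that could be tested were TNF and TNFSF15 (TL1A). Both rose with siGGCAGU, TNF by 0.96 on the log2 scale (adjusted p = 0.00198) and TNFSF15 by 2.49 (adjusted p = 6.6e-07), from 1.13 ± 0.549 CPM in siNT1 to 6.63 ± 0.514 CPM (SD, n = 2). Neither was called with siGGGGGC at 24 or 48 h. TNFSF15 also differed over time in siNT1, at 0.0986 ± 0.0744 CPM at 24 h. Among the other receptors and decoys, 3 of 4 tested fell with siGGGGGC at 24 h and 4 of 4 at 48 h. Of all genes 8.32% and 27.5% were called lower in these comparisons. With siGGCAGU 2 of 4 were called, both lower, where 52.7% of all genes were called and 24.9% were lower. TNFRSF25, the death receptor for TNFSF15, fell by 2.04 at 48 h, from 4.69 ± 0.189 to 1.13 ± 0.202 CPM, and by 0.61 at 24 h, and it was not called with siGGCAGU (5.12 ± 0.0489 CPM). TNFRSF11B (osteoprotegerin, a soluble decoy that binds TRAIL and RANKL) fell in all 3 comparisons with siNT1, by 0.57, 0.97 and 1.40. TNFRSF21 (DR6) fell by 0.72 at 24 h with siGGGGGC, and LTBR, the lymphotoxin beta receptor, by 0.82 at 48 h with siGGGGGC and by 0.37 with siGGCAGU.

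Of the 17 genes of the TNF receptor complex, siGGGGGC changed 3 at 24 h and 12 at 48 h, 7 of these upward, and siGGCAGU changed 10, 6 of them upward. These shares, 17.6%, 70.6% and 58.8%, stand beside 18.9%, 55.3% and 52.7% of all genes, so those at 24 h and with siGGCAGU were close to the share over all genes. BIRC3, the ubiquitin ligase cIAP2 that acts on RIPK1, rose in all 3 comparisons, by 1.38 and 2.53 with siGGGGGC and by 0.81 with siGGCAGU, from 16.7 ± 0.987 CPM in siNT1 at 48 h to 96.2 ± 1.27 CPM in siGGGGGC. TRAF1, a TNF receptor adaptor with few counts, rose by 3.18 with siGGGGGC at 48 h (0.873 ± 0.0124 to 7.96 ± 0.126 CPM) and by 1.86 with siGGCAGU. TRADD, the adaptor that links TNFRSF1A to RIPK1, fell with siGGGGGC by 0.66 at 24 h and 1.30 at 48 h and rose with siGGCAGU by 0.61, the same pair of directions as TNFRSF1A at 48 h. Between the siRNAs TRADD differed by −1.91 (adjusted p = 6.77e-08). SHARPIN, a subunit of the linear ubiquitin ligase, was lower with siGGGGGC than with siGGCAGU by 1.53. TRAF2 rose by 0.42 with siGGGGGC at 24 h, and IKBKB, a kinase of the NF-kB pathway, fell by 0.84 with siGGCAGU.

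Several of the deubiquitinases and NF-kB feedback genes are switched on by NF-kB themselves. With siGGGGGC 4 of 9 were called at 24 h, 2 upward and 2 downward, and 6 of 9 at 48 h, 5 of them upward. With siGGCAGU 8 of 9 were called, 6 of them upward. These are 44.4%, 66.7% and 88.9%, beside 18.9%, 55.3% and 52.7% of all genes, of which 10.6%, 27.8% and 27.8% of all genes were upward. NFKBIA, the inhibitor of NF-kB, rose by 1.77 with siGGGGGC at 48 h and by 1.06 with siGGCAGU. NFKB2 rose by 1.00, 1.68 and 0.92 and RELB by 0.77, 1.49 and 0.82 with siGGGGGC at 24 h, siGGGGGC at 48 h and siGGCAGU. TNFAIP3 (A20) rose by 1.76 with siGGCAGU and by 1.38 with siGGGGGC at 48 h, and the direct comparison of the siRNAs did not pass the test (adjusted p = 0.0712). TNIP1, its partner, rose by 0.95 with siGGCAGU and fell by 0.38 with siGGGGGC at 24 h (log2 fold change −0.38, adjusted p = 0.0125). CYLD, which removes ubiquitin chains from RIPK1, fell by 0.52 with siGGGGGC at 24 h. TNIP2 was higher with siGGGGGC than with siGGCAGU by 1.08.

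In the execution arm, 1 of 6 genes was called at 24 h and 5 of 6 with each siRNA at 48 h, 4 upward and 1 downward each (16.7%, 83.3% and 83.3%, beside 18.9%, 55.3% and 52.7% of all genes). BID, which carries the caspase-8 signal to mitochondria, was the gene called at 24 h (0.59, adjusted p = 0.000275). CASP6, a caspase further downstream, fell by 0.86 with siGGGGGC at 48 h. DIABLO, which blocks inhibitors of apoptosis, rose by 0.84 with siGGGGGC. XIAP, an inhibitor of caspases, rose with siGGCAGU by 1.02 and was lower with siGGGGGC than with siGGCAGU by 0.79. MLKL, the only tested gene of the necroptosis arm and the protein that breaks the membrane, fell by 1.35 with siGGGGGC at 48 h, from 19.7 ± 0.418 to 7.7 ± 0.0646 CPM, and was at 20.4 ± 0.646 CPM with siGGCAGU.

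The other binding partners had 1 of 9 called at 24 h, FAIM, an inhibitor of FAS-induced death, with a fall of 0.37, or 11.1% beside 18.9% of all genes. At 48 h siGGGGGC changed 7 of 9, 5 downward, and siGGCAGU 8 of 9, 4 downward (77.8% and 88.9%, beside 55.3% and 52.7% of all genes). PEA15, a death effector domain protein that binds FADD and CASP8, fell by 1.30 with siGGGGGC, although its level in siNT1 also moved over time (68.9 ± 5.4 CPM at 24 h, 136 ± 16.6 CPM at 48 h). FAIM fell by 0.81 and 0.70 and CASP8AP2, named for its binding to caspase-8, by 0.80 and 0.71 with siGGGGGC and siGGCAGU. NOL3 (ARC), a caspase-8 inhibitor, rose by 0.91 with siGGCAGU. Between the siRNAs DAXX was lower by 0.62 and FAF1 higher by 0.60 with siGGGGGC, both proteins that bind the FAS tail.

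The genes whose log2 CPM followed a member most closely over the 10 libraries were looked up for the 3 members with the widest range of group means, as a description with no p. For TNFRSF10D they were MINPP1 (Pearson r = 0.988), BIRC3 (0.987) and CEP85L (0.987). For CFLAR they were DKK3 (0.989), PGPEP1 (0.988) and ITGB8 (0.985), and for CASP10 they were DNAH6 (0.971), STRADB (0.965) and ZNF548 (0.959). The 10 libraries form 5 groups, so a shared difference between a few groups is enough for such values.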

How the data were processed

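RNA-seq was measured in 10 libraries of HeyA8 cells, made from total RNA with ribosomal RNA depleted and sequenced paired-end. The authors trimmed reads with Trimmomatic, aligned them to hg38 with TopHat or STAR (the labels name TopHat and Bowtie2) and counted exonic reads per Ensembl gene with htseq; which aligner made these files and the strand setting are not given in the sources used here. The deposited values are raw counts per gene, not normalized. The deposited comparison tables (mean counts, log2 fold changes and p-values) were not used.

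edgeR 4.0.16 (R 4.3.3) was run on the counts with its quasi-likelihood test, two-sided, after filterByExpr and TMM scaling. A single model held the 10 libraries and a factor of 5 groups, with 5 residual degrees of freedom. The Benjamini-Hochberg adjustment ran over 16905 genes, and a gene was called at an adjusted p below 0.05. SE and 95% intervals come from the F statistic. CPM are TMM-scaled; levels between genes are divided by the canonical transcript length of GENCODE 44, which held 98.9% of the identifiers, and 3′ UTRs are those of its protein-coding transcripts. Log2 CPM used a prior count of 2. All members are named; of each pathway list the 3 called genes with the largest change in each siRNA comparison are, except that some genes the rule selects are not reported here. The members, lists and tests were chosen with earlier results of these data known. Alternatives were DESeq2 1.42.0, RLE and upper-quartile scaling, other count filters, fits of the compared libraries alone, a replicate block, removal of 3 abundant genes, each library left out and a limit of 1 on the log2 fold change; lengths from the union of exons and the canonical 3′ UTR were added after the data were seen. Total counts were 19781445 to 42428986 per library. Replicates of a group differed by more than counting noise.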

Additional observations from a re-analysis of the deposited data

Results flagged for a closer look

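The size of the siGGGGGC effect differed between the times for 3 members, by the interaction term of the edgeR fit. TNFRSF10B differed by 0.86 on the log2 scale (adjusted p = 9.72e-05), and both siGGGGGC libraries were above both siNT1 libraries at each time. TNFRSF10D differed by 0.82 (adjusted p = 0.00012), with the same order of libraries. CASP8 differed by 0.44 (adjusted p = 0.0159), with both siGGGGGC libraries below both siNT1 libraries at 24 h and above them at 48 h, and this call ended in 8 of 16 alternatives. TNFRSF10B and TNFRSF10D were called under all 16.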

How the results depend on the processing

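Of 749 alternative values for single members, 660 kept direction and side of the threshold, 57 lost the call, 5 gained it and 27 changed sign, and of the last 0 had an adjusted p below 0.05 in either fit. Of 168 alternative counts, 134 stayed within 1.5 times. Requiring a log2 fold change beyond 1 left 0, 3, 2, 1, 0 and 0 of the 10 members. Of the 48 pathway genes tested it left 2, 11, 6, 10, 8 and 2. The order is siGGGGGC at 24 h, at 48 h, siGGCAGU, both siRNAs, interaction and siNT1 over time. Of all genes 3.72%, 21.5%, 20.3%, 23%, 11.2% and 1.53% were called beyond that limit, in that order. With 24 h libraries fitted alone 6 members were called in place of 4, and 21 pathway genes in place of 12. The share of all genes called in that fit is not reported here. In the shortest 3′ UTR 1 of 10 members held GCCCCC and 1 held ACTGCC, where 16% and 15.6% of all genes did. Leaving out 1 library gave 1 to 1, 3 to 6, 6 to 8, 7 to 9, 2 to 4 and 0 to 4 members and 6 to 8, 27 to 33, 33 to 35, 26 to 31, 15 to 24 and 5 to 12 pathway genes in the same order. Fewer libraries enter these fits, and the cause was otherwise not tested. The shares of all genes called with 1 library left out are not reported here either.

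Without the filter on low counts these turned sign: TNFRSF10A (0.0049 at 24 h, −0.033 at 48 h, −0.038 for the interaction), CFLAR (−0.071 with siGGGGGC at 48 h), and FAS and TNFRSF1A (0.031 and 0.011, siNT1 over time). This setting moved the median of all genes by 0.15 for the interaction. With upper-quartile scaling RIPK1 was −0.014 at 24 h, and TNFRSF10A and TNFRSF10B were −0.0021 and −0.036 for siNT1 over time. FAS between the siRNAs was 0.0094 with DESeq2 and 0.0092 with RLE scaling. Sign changes on leaving out 1 library came within these ranges: at 24 h TNFRSF10A −0.039 to 0.04, RIPK1 −0.016 to 0.088 and CASP10 −0.71 to 0.61; FAS between the siRNAs −0.086 to 0.046; for the interaction FADD −0.054 to 0.49 and CASP10 −1.01 to 0.31; for siNT1 over time FAS −0.13 to 0.045, TNFRSF10B −0.041 to 0.084 and CASP10 −0.73 to 0.60. CASP10 could not be tested where its counts failed the filter.

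The replicate numbers did not pair the samples, as the correlation of same-numbered libraries' deviations ran from −0.0894 to 0.0266. With a replicate block 3, 6, 7, 9, 3 and 3 members were called in the order above. The share of all genes called with this block is not reported here, so these counts have no background beside them. The 24 h call of TNFRSF10B was lost (adjusted p = 0.0541), and so was that of RIPK1 for siNT1 over time (adjusted p = 0.0564).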
